A study of Mus musculus with 2 samples.

Results

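The transcript levels of 9 transcription factor genes of bone, ligament and jaw mesenchyme were read from single-cell RNA sequencing of mouse periodontal tissue. The genes were *Runx2*, *Sp7*, *Dlx5*, *Dlx3*, *Msx1*, *Msx2*, *Scx*, *Mkx* and *Twist1*, which were picked by symbol from the 31053 genes of the count tables. The study asked how immune cells act on bone-forming cells when a gum infection destroys the bone around a tooth. All mice were wild type on the C57BL/6 background and 8 weeks old. In the LIP library (ligature-induced periodontitis), a thread had been tied around a tooth 7 days before the tissue was taken, whereas the control library came from mice with no treatment. Each library pooled cells of the gingiva and of the alveolar bone surface from 5 mice, and no cell could be traced back to its mouse. With 1 library per condition, the spread between mice could not be measured and no test between conditions was possible.

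RUNX2, a runt-domain factor, is required for osteoblasts to form, and SP7 (osterix), a zinc finger factor, acts after it in the same lineage. DLX and MSX proteins are homeodomain factors that pattern the jaw, the teeth and the skin, and several of them are active in epithelium as well as in mesenchyme. SCX and MKX are regulators of tendon and ligament, and TWIST1, a basic helix-loop-helix factor of mesenchyme, is known to restrain RUNX2. The periodontal ligament, which ties the tooth root to the alveolar bone, holds fibroblasts as well as cells that can become osteoblasts.

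After the cell filters, 936 LIP cells with a median of 5595 UMIs and 883 control cells with a median of 10845 UMIs were kept. A UMI (unique molecular identifier) marks 1 captured transcript. Cells were clustered without the 9 genes and classes were named from marker genes, written with "-like" because the names rest on transcripts alone. Levels are in CPM, the UMIs of a gene in 1000000 UMIs of its class or cell, with an exact 95% Poisson interval. Shares of cells have Clopper-Pearson intervals and ratios exact conditional ones, and all of these cover counting error only. A class with no UMI was given the limit that 3 counts allow. Since reads were taken from the 3′ ends of transcripts, levels are compared between classes and libraries and not between genes.

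The 9 genes were sparse. In all kept cells, *Twist1* had the most UMIs, with 643 in LIP and 569 in control cells. The fewest were the 33 of *Msx2* in LIP and the 14 of *Sp7* in control cells, and *Mkx* had 38 and 29. *Dlx3* had UMIs in only 2 of 14 named classes in each library, osteoblast-like and epithelial-like cells, and was at 0 in 12, where the limits ran from 1.85 to 53.6 CPM (LIP) and from 3.07 to 26.9 CPM (control). *Runx2* was spread most widely, with UMIs in 10 LIP and 8 control classes. Every osteoblast-like cell held at least 1 of the 9 genes. At least 3 of them were found in 29 of 31 osteoblast-like LIP cells and 18 of 20 control cells, compared with 15 of 45 and 7 of 46 mural-like cells and 0 of 320 and 0 of 55 neutrophil-like cells. Depth differed between these classes, with median UMIs per cell of 25670 and 12931 in osteoblast-like cells and 3877.5 and 6564 in neutrophil-like cells.

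**Figure D1:**
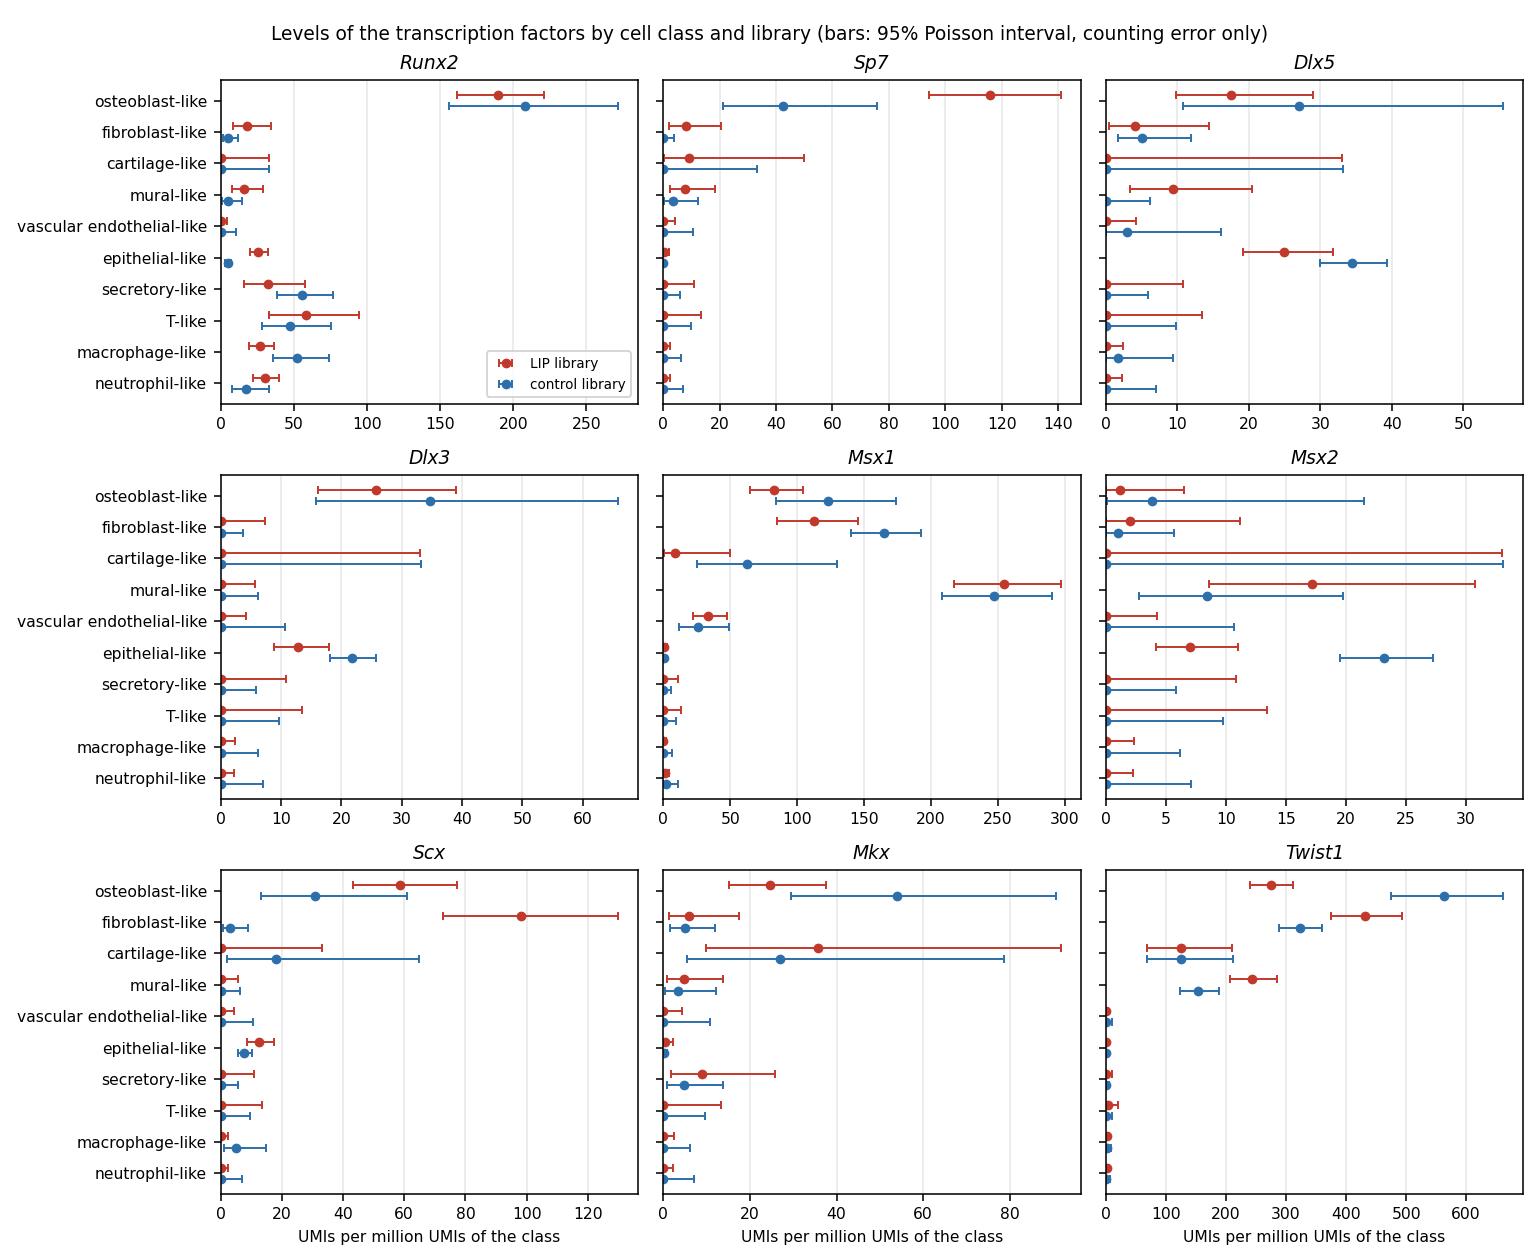
Level of each of the 9 genes (x axis, CPM, a separate scale for each gene) in 10 cell classes (y axis) of the LIP library (red) and the control library (blue). Points are levels and bars are exact 95% Poisson intervals. *Runx2* and *Sp7* were highest in osteoblast-like cells and *Msx1* in mural-like cells at 255 and 247 CPM. *Dlx3* was found only in osteoblast-like and epithelial-like cells, and *Dlx5* in these and in a few fibroblast-like cells among others.

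*Runx2* lies on the minus strand at chr17:44495987-44814797 (GRCm38, GENCODE vM21), where *Supt3* and 3 antisense transcripts overlap it on the opposite strand. Whether counting used the strand is not given in the sources used here. In osteoblast-like cells, *Supt3* had 10 UMIs in LIP and 0 in control cells, beside 162 and 54 UMIs of *Runx2*. In epithelial-like cells it had 26 and 49 UMIs beside 66 and 30 of *Runx2*. The reference promoter of *Runx2* is shown because the RUNX motif, ACCACA or TGTGGT on the other strand, stands in it 3 times in 300 bases. This motif is found in 16.8% of 32851 promoters of the same length. Of the 3 matches, 1 lies in the 250 bases before the RefSeq start, where 14.0% of promoters hold one, and 2 in the 50 bases after it. Both stretches lie within the GENCODE span of the gene given above. The following stretches of 30 bases, from RefSeq on GRCm38.p6 and written 5′ to 3′ on the minus strand, hold the 3 matches in capitals.
Runx2 chr17:44814688-44814717: gaggtcacaaACCACAtgattctgtctctc
Runx2 chr17:44814585-44814614: ctcacaaacaACCACAgaACCACAagtgcg
These matches describe the letters of the reference. The 3′ reads do not show which promoter was in use.

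*Runx2* reached 189 CPM (161 to 221) in osteoblast-like LIP cells, where 25 of 31 cells held it, and 208 CPM (156 to 272) in control cells, where 13 of 20 did. In both libraries this class stood above the next one, and it was 8.40-fold (LIP) and 20.1-fold (control) above the other cells. Within the class, cells with summed osteoblast markers under 1000 CPM, a division described below, had 80.7 CPM (49.3 to 125) in LIP and 140 CPM (92.0 to 203) in control. The level was also not confined to osteoblast-like cells. T-like cells had 58.3 and 47.6 CPM in LIP and control, secretory-like cells 32.4 and 55.3 CPM, macrophage-like cells 27.1 and 52.2 CPM, and neutrophil-like cells 30.3 and 17.3 CPM. In LIP cells the order of these 4 classes was T-like, secretory-like, neutrophil-like and macrophage-like, and none was told apart from the class after it. In control macrophage-like cells 31 UMIs came from 5 of 42 cells, whereas in the LIP library 42 UMIs came from 25 of 83. No *Runx2* UMI was found in vascular endothelial-like cells, which allows up to 3.45 CPM in LIP and 8.69 CPM in control cells.

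*Sp7* (chr15:102356606-102367182, minus strand) had the narrower pattern of the pair of osteoblast factors. Osteoblast-like LIP cells held 99 of the 114 *Sp7* UMIs of the kept LIP cells, at 116 CPM (94.1 to 141) in 17 of 31 cells. Control cells of the class held 11 of the 14 UMIs of the kept control cells, at 42.4 CPM (21.2 to 75.9) in 4 of 20 cells. Barcodes that the cell filters left out held 27 more *Sp7* UMIs in LIP and 20 more in control. The class was 74.9-fold above the other cells of the LIP library, and it was also first in the control library. Elsewhere *Sp7* was seen as a few UMIs, with 5 and 2 in mural-like cells and 4 and 0 in fibroblast-like cells. It was at 0 in 320 and 55 neutrophil-like cells, with limits of 1.85 and 5.75 CPM. In those neutrophil-like cells *Col1a1*, a collagen gene of bone and connective tissue, had UMIs in 85 of 320 LIP cells and 3 of 55 control cells. This is the share at which an abundant mesenchymal transcript was met in a class that should lack it. Osteoblast-like LIP cells held 51293 *Col1a1* UMIs beside 99 of *Sp7*, so the share does not carry over to the sparse factors.

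*Dlx5* (chr6:6877805-6882085, minus strand) and *Dlx3* (chr11:95120119-95125296, plus strand) both had UMIs in osteoblast-like and epithelial-like cells. *Dlx3* had none in other named classes, whereas *Dlx5* had UMIs in 4 named LIP classes and 6 control ones. These included 2 of 24 LIP and 3 of 90 control fibroblast-like cells. *Dlx5* was at 17.5 CPM (9.82 to 28.9) and 27.0 CPM (10.9 to 55.6) in LIP and control osteoblast-like cells, and at 24.9 CPM (19.1 to 31.8) and 34.4 CPM (29.9 to 39.3) in epithelial-like cells. The 2 classes were not told apart in either library. *Dlx3* was at 25.7 CPM (16.1 to 39.0) and 34.7 CPM (15.9 to 65.9) in osteoblast-like cells, and at 12.8 CPM (8.83 to 18) and 21.7 CPM (18.2 to 25.7) in epithelial-like cells, so that osteoblast-like cells stood above in LIP and were not told apart in control cells. Because epithelial-like cells were many, they held most UMIs of both genes in the kept control cells, with 212 of 246 for *Dlx5* and 134 of 160 for *Dlx3*.

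Within the epithelial-like cells of the control library, *Dlx3* was at 30.1 CPM (22.6 to 39.2) in the sub-cluster led by *Pappa*, *Fst* and *Col17a1* and at 13.4 CPM (9.69 to 18.2) in the one led by keratin genes such as *Krt6b*, *Krt16* and *Krt13*. In the LIP library the values were 15.6 CPM (8.51 to 26.1) and 8.68 CPM (4.16 to 16.0). *Col17a1* is a hemidesmosome collagen of basal keratinocytes. *Msx2* showed a like difference in the control library, with 28.9 CPM (21.6 to 37.9) and 16.7 CPM (12.4 to 21.8), while *Dlx5* had overlapping intervals at 37.8 CPM (29.4 to 48.0) and 30.4 CPM (24.6 to 37.2).

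*Msx1* (chr5:37820485-37824583, minus strand) is a homeodomain factor of jaw and tooth mesenchyme. Its first class was mural-like cells, the smooth muscle cells and pericytes of vessel walls, at 255 CPM (217 to 297) in LIP and 247 CPM (209 to 291) in control cells. It was found in 39 of 45 and 38 of 46 of these cells. Fibroblast-like cells followed at 112 CPM (84.8 to 146) and 165 CPM (140.5 to 193), and osteoblast-like cells at 83.0 CPM (64.8 to 105) and 123 CPM (84.4 to 174). Mural-like cells stood above fibroblast-like cells in both libraries, and the other two classes were not told apart. After each cell was thinned to 5000 UMIs, the shares in mural-like cells were 64.3% and 66.1%, which keeps the order at equal depth against 35.8% and 38.1% in fibroblast-like cells and 28.2% and 36.3% in osteoblast-like cells. In neutrophil-like cells *Msx1* UMIs were found in 2 of 320 and 1 of 55 cells.

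Mural-like cells comprised a sub-cluster led by *Myh11*, *Tagln* and *Myl9*, genes of smooth muscle contraction, and another led by *Rgs5*, *Vtn* and *Higd1b*. *Msx1* was at 332 CPM (274 to 399) in the first and 167 CPM (124 to 220) in the second in the LIP library, and at 261 CPM (214 to 315) and 215 CPM (153 to 294) in the control library. The intervals were apart for LIP and overlapped for control cells. Vascular endothelial-like cells, which line the vessels, had 33.4 CPM and 26.1 CPM of *Msx1*. Within them, a sub-cluster led by *Sema3g*, *Cldn5* and *Sox17*, with *Gja4* and *Gja5* behind, genes known from arteries, had 76.6 CPM (42.9 to 126) against 20.8 CPM (11.4 to 34.9) in the remaining LIP cells of the class.

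*Msx2* (chr13:53466884-53473074, minus strand) differed from *Msx1* in its cells. Epithelial-like cells held 143 of the 163 *Msx2* UMIs of the kept control cells, at 23.2 CPM (19.5 to 27.3) in 74 of 224 cells. They had 6.99 CPM (4.14 to 11.1) in 12 of 112 LIP cells. Mural-like cells had 17.2 CPM (8.58 to 30.8) and 8.46 CPM (2.75 to 19.7), so that they ranked first in LIP and second in control cells. Osteoblast-like cells held 1 *Msx2* UMI in each library.

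*Scx* (chr15:76457452-76459458, plus strand), which encodes scleraxis, lies inside *Bop1*, a gene of the opposite strand. *Scx* was highest in fibroblast-like LIP cells, at 98.3 CPM (72.7 to 130), but its 49 UMIs came from 3 of 24 cells and 38 of them from 1 cell. In control fibroblast-like cells it had 3 UMIs, or 3.07 CPM (0.634 to 8.98). Osteoblast-like cells had 58.5 CPM (43.4 to 77.1) in 9 of 31 LIP cells and 30.8 CPM (13.3 to 60.8) in 5 of 20 control cells. Epithelial-like cells had 12.4 CPM (8.50 to 17.6) and 7.78 CPM (5.74 to 10.3). *Bop1* had 10 and 13 UMIs in fibroblast-like cells, 15 and 2 in osteoblast-like cells and 71 and 175 in epithelial-like cells. In epithelial-like cells *Bop1* thus had more UMIs than *Scx*, which had 32 and 48.

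The epithelial *Scx* UMIs lay mostly in the sub-cluster led by *Pappa*, *Fst* and *Col17a1*. It held 24 of the 32 LIP UMIs, at 26.7 CPM (17.1 to 39.7) in 16 of 35 cells, and 31 of the 48 control UMIs, at 17.3 CPM (11.7 to 24.5) in 20 of 75 cells. The keratin-led sub-cluster had 3.20 CPM (1.54 to 5.89) in the control library.

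The richest *Scx* cell, with 38 UMIs, also had 43 UMIs of *Tnmd*, 92 of *Fmod* and 74 of *Kera*, which encode tenomodulin, fibromodulin and keratocan of tendon and ligament, and 0 of *Ibsp* and *Bglap*, bone matrix genes. When osteoblast-like and fibroblast-like cells were pooled and split by *Tnmd*, a division chosen after the data were seen, the 17 LIP cells with *Tnmd* had 178 CPM of *Scx* (138 to 225) and the 38 without it 31.1 CPM (21.0 to 44.3). Those 178 CPM came from 4 cells. In the control library the values were 25.4 CPM (5.23 to 74.1) and 7.16 CPM (3.09 to 14.1), which overlapped. The control cells with *Tnmd* were all osteoblast-like, while those without it included all control fibroblast-like cells. *Scx* was also found without *Tnmd*, as in a LIP osteoblast-like cell with 12 UMIs of *Scx*, 5 of *Sp7* and 0 of *Tnmd*.

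*Mkx*, which encodes the ligament regulator mohawk, was at 24.6 CPM (15.2 to 37.5) in 14 of 31 osteoblast-like LIP cells and at 54.0 CPM (29.5 to 90.6) in 10 of 20 control cells. Cartilage-like cells, of which there were 7 and 11, had 35.8 CPM (9.77 to 91.8) and 26.9 CPM (5.56 to 78.7), and were not told apart from osteoblast-like cells. In the pooled LIP cells split by *Tnmd*, *Mkx* was at 36.1 CPM (19.7 to 60.5) with it and 10.4 CPM (4.97 to 19.0) without it. These intervals were apart. The control values were 42.3 CPM (13.7 to 98.7) and 12.5 CPM (6.85 to 21.0), which overlapped. Control fibroblast-like cells had no *Tnmd* UMI, so the control cells with *Tnmd* were all osteoblast-like. Their 42.3 CPM was not above the 54.0 CPM of that whole class. The control comparison thus does not separate *Tnmd* from cell class. The locus of *Mkx* is not described here.

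*Twist1* (chr12:33957671-33959829, plus strand) was found in all 4 mesenchymal classes. Fibroblast-like cells had 431 CPM (375 to 493) and 323 CPM (288 to 360), osteoblast-like cells 275 CPM (241 to 312) and 563 CPM (475 to 662), mural-like cells 244 CPM (207 to 285) and 154 CPM (124 to 189), and cartilage-like cells 125 CPM (68.6 to 210.5) and 126 CPM (68.7 to 211). Fibroblast-like cells thus ranked first in LIP and osteoblast-like cells in control, each above the next class. In the control osteoblast-like class, 16 of 20 cells had summed osteoblast markers under 1000 CPM. They held 108 *Twist1* UMIs, against 38 in the other 4 cells, at 559 and 575 CPM. In epithelial-like cells *Twist1* was nearly absent despite their depth, with 1 UMI in 112 LIP cells and 0 in 224 control cells, a limit of 0.486 CPM. In neutrophil-like cells it was found in 2 of 320 and 0 of 55 cells.

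The 250 reference bases before the start of *Msx1* and of *Twist1* are shown because these genes shared their classes and because TWIST1 is a factor that binds E-boxes, written CANNTG, which reads the same on both strands. An E-box is found in 66.2% of the 32851 promoters over this length, so that a match is common. The *Msx1* stretch holds 1, in capitals, and the *Twist1* stretch holds none. The sequences are RefSeq's on GRCm38.p6, 5′ to 3′ on each gene's own strand.
Msx1 chr5:37824586-37824835: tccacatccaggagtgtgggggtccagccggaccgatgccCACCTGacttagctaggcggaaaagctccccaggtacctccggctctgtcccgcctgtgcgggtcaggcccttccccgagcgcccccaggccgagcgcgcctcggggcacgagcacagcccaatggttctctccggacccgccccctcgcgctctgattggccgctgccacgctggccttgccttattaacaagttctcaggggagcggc
Twist1 chr12:33957421-33957670: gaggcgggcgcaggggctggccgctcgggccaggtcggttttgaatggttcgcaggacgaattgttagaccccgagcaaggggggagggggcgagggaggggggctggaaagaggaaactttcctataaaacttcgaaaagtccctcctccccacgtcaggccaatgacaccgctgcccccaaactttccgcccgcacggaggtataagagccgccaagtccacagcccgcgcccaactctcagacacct
The homeodomain motif TAATTG, or CAATTA on the other strand, was in neither of them and is found in 7.17% of promoters over this length. An absent match says only that these letters are not in the window.

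The genes also met in single cells. In the LIP library *Runx2* was found in 16 of 17 osteoblast-like cells with *Sp7* (94.1%, 71.3 to 99.9) and in 9 of 14 without it (64.3%, 35.1 to 87.2). These intervals overlapped. The LIP cells with *Sp7* were also deeper, at a median of 29934 UMIs against 22843.5. After 5000 UMIs were drawn from each cell the shares were 7 of 10 and 8 of 21. In the control library the shares were 3 of 4 (75%, 19.4 to 99.4) and 10 of 16 (62.5%, 35.4 to 84.8). All 8 osteoblast-like LIP cells with *Dlx3* held *Sp7* as well, and none of the 14 cells without *Sp7* held *Dlx3*. After the draw of 5000 UMIs these shares could not be told apart, with *Dlx3* in 1 of 10 LIP cells with *Sp7* and 0 of 21 without. In the control library 3 of 5 cells with *Dlx3* held *Sp7*. In control epithelial-like cells *Dlx3* was found in 55 of 109 cells with *Dlx5* (50.5%, 40.7 to 60.2) and in 30 of 115 without it (26.1%, 18.3 to 35.1), and *Msx2* in 53 (48.6%, 38.9 to 58.4) and 21 (18.3%, 11.7 to 26.5). Median depths were 29635 and 23957 UMIs. A single draw of 5000 UMIs from each cell made *Dlx3* about as frequent in 39 cells with *Dlx5* (12.8%) as in 165 without (12.7%), so the epithelial difference was not seen at equal depth. *Msx2* was found in 17.9% (7.5 to 33.5) and 8.5% (4.7 to 13.8) of these cells, with overlapping intervals.

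LIP and control cells of a class were then compared to describe what 7 days of ligature went with. A gene was called at a 2-fold difference with at least 20 UMIs over both libraries. In osteoblast-like cells 8 of the 9 genes could be counted. *Sp7* was called higher in the LIP library, and *Mkx* and *Twist1* lower. Of the 6330 genes counted in these cells, 8.01% were called higher and 11.6% lower, and the median log2 ratio was -0.14 over all genes and -0.50 over the 8. On the log2 scale *Sp7* was 1.45 (0.55 to 2.50), from 42.4 to 116 CPM, *Twist1* -1.03 (-1.34 to -0.73), from 563 to 275 CPM, and *Mkx* -1.14 (-2.18 to -0.05), from 54.0 to 24.6 CPM. The calls of *Twist1* and *Mkx* depended on the setting, since their ratios were -0.79 and -0.57 with 15 dimensions and *Twist1* was at -0.67 as a mean over cells. The cell filters left out 20 control *Sp7* UMIs, 18 of them in 1 barcode, while all kept control cells had 14. In the LIP library 27 were left out and 114 kept. Barcodes left out were given no class, and their part in the *Sp7* call was not tested. *Runx2* had a log2 ratio of -0.14 (-0.59 to 0.34). *Dlx5* was at -0.62 (-2.00 to 0.91), *Dlx3* at -0.43 (-1.61 to 0.87), *Msx1* at -0.57 (-1.19 to 0.08) and *Scx* at 0.92 (-0.17 to 2.21), with all 4 intervals spanning 0.

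**Figure D2:**
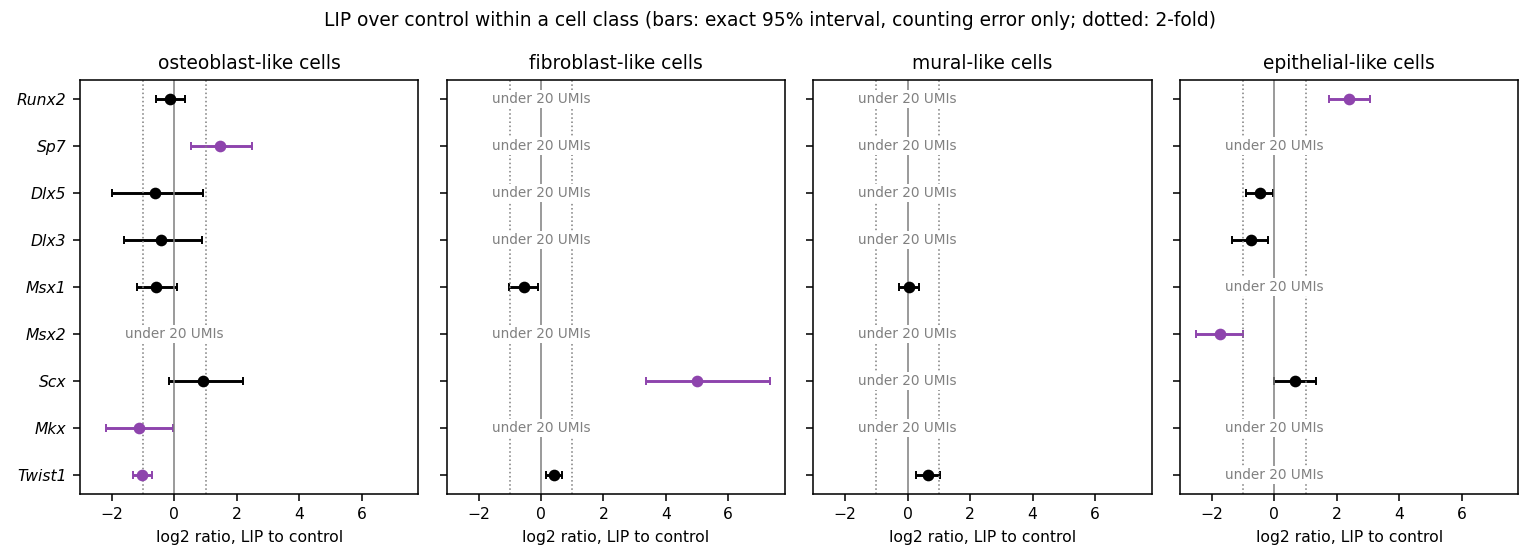
Log2 ratio of LIP to control (x axis) for each of the 9 genes (y axis) in osteoblast-like, fibroblast-like, mural-like and epithelial-like cells. Points are ratios, bars exact 95% intervals, dotted lines 2-fold, and purple marks the called genes. Outside osteoblast-like cells the called genes were *Scx* at 5.0 in fibroblast-like cells and *Runx2* at 2.40 and *Msx2* at -1.73 in epithelial-like cells.

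The osteoblast-like class did not have the same makeup in both libraries. The 10 osteoblast markers that named it summed to 28810 CPM in LIP cells and 3894 CPM in control cells (*Phex* at 0), while 9 ligament markers summed to 10172 and 8790 CPM (*Kera* at 0 in both). The 11 fibroblast markers summed to 6762 CPM in LIP and 10903 CPM in control cells (*Col14a1* at 0). In control cells the osteoblast markers thus summed to less than the ligament or the fibroblast markers. Cells were therefore also divided by the summed osteoblast markers at 1000 CPM, a limit chosen after the data were seen. Of the LIP cells 20 of 31 were at or above it, and of the control cells 4 of 20, with 1 and 3 cells within 2-fold of the limit. The 16 control cells below the limit had 528 CPM of *Tnmd*, 1 UMI of *Ibsp* and 0 of *Bglap*. They held 12 *Mkx* UMIs, at 62.1 CPM (32.1 to 108). The 4 control cells at or above the limit held 2, at 30.3 CPM (3.67 to 109), and the intervals overlapped.

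Among cells at or above the limit, *Sp7* was at 163 CPM (133 to 199) in LIP and 136 CPM (62.3 to 259) in control cells, a log2 ratio of 0.26 (-0.72 to 1.43). Below the limit it was at 0 in 11 LIP cells, a limit of 12.1 CPM, and at 2 UMIs in 1 of 16 control cells. The call of *Sp7* was thus not met within cells at or above the limit, though the interval of the ratio there reached past 2-fold. Cells at or above the limit still differed between the libraries. *Ibsp* was at 13024 CPM in LIP and 893 CPM in control cells, and *Bglap* at 13505 and 3089 CPM. The part of this difference in the ratios given here was not tested. *Twist1* below the limit was at 557 CPM (468 to 658) in LIP and 559 CPM in control cells, with a log2 ratio of -0.00 (-0.38 to 0.37). At or above the limit it was at 160 CPM (130 to 195) and 575 CPM (407 to 790), a log2 ratio of -1.85 (-2.40 to -1.27), but the control value rests on 4 cells. *Dlx3* and *Dlx5* were at 0 in the 11 LIP cells below the limit, which allows up to 12.1 CPM. The control cells did not show this. Below the limit they had 36.2 CPM of *Dlx3* (14.6 to 74.6) and 31.0 CPM of *Dlx5* (11.4 to 67.5). These UMIs came from the same 3 of 16 cells. One of the cells, which also had 2 UMIs of *Sp7*, held 4 UMIs of each gene. Control cells at or above the limit had 30.3 CPM (3.67 to 109) and 15.1 CPM (0.383 to 84.4), with overlapping intervals. *Runx2* had a log2 ratio of -0.81 (-1.41 to -0.15) at or above the limit and -0.79 (-1.70 to 0.10) below it, both lower than its ratio over all cells of the class. The control *Runx2* value at or above the limit also rests on 4 cells, with 27 UMIs and up to 12 in 1 cell. In LIP cells *Runx2* was at 234 CPM (197 to 276) above and 80.7 CPM (49.3 to 125) below the limit, and *Mkx* at 14.8 CPM (6.78 to 28.1) and 48.4 CPM (25 to 84.6). *Tnmd* was at 16.5 CPM in LIP cells above the limit and 835 CPM below it.

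**Figure D3:**
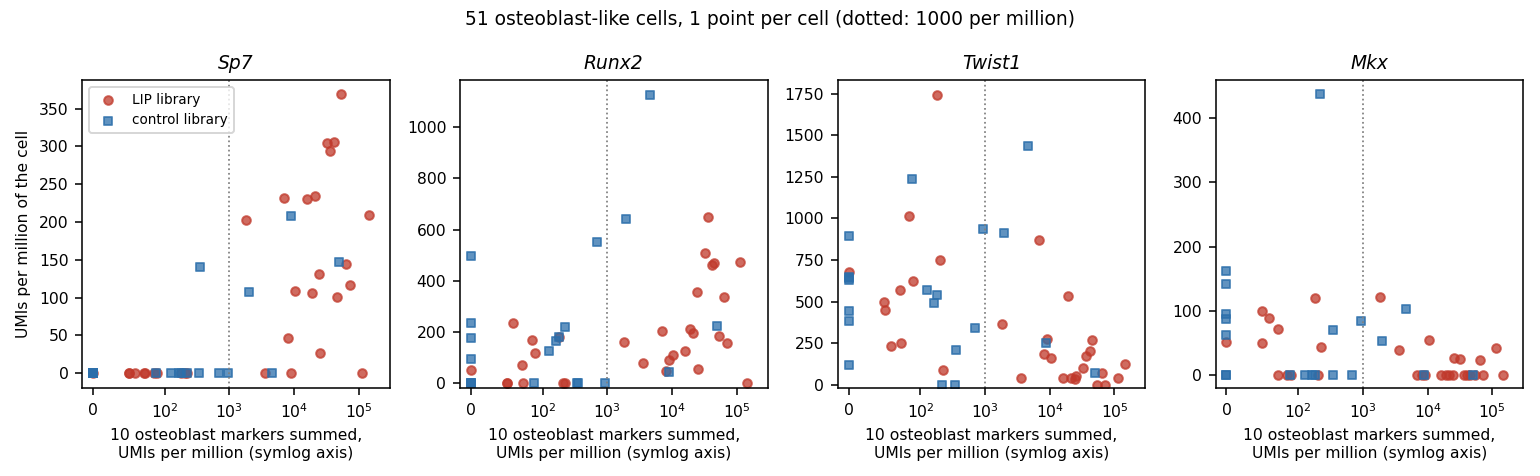
Levels of *Sp7*, *Runx2*, *Twist1* and *Mkx* (y axes, CPM of the cell) in the 51 osteoblast-like cells, against their summed osteoblast markers (x axes, CPM, logarithmic beyond a linear stretch at 0). Circles are LIP cells, squares control cells, and the dotted line is 1000 CPM. *Sp7* was found in 17 of 20 LIP cells and 3 of 4 control cells at or above the line, and in 0 of 11 and 1 of 16 cells below it.

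In fibroblast-like cells 3 of the 9 genes could be counted, and *Scx* was called higher in the LIP library, against 4.26% of 7813 genes called higher and 7.56% lower. Its log2 ratio was 5.0 (3.37 to 7.32). It rested on 3 LIP cells, and without the richest *Scx* cell of each library 11 LIP UMIs and 1 control UMI were left, too few for a call. Ligament markers summed to 7740 CPM in LIP and 2911 CPM in control fibroblast-like cells, where *Tnmd* and *Kera* were at 0. Their part in the *Scx* value was not tested. *Twist1* had a log2 ratio of 0.42 (0.16 to 0.67) and *Msx1* of -0.55 (-1.02 to -0.11), both within 2-fold. After thinning to 5000 UMIs the *Twist1* ratio was -0.05, so its difference was not seen at equal depth. In mural-like cells *Msx1* was at 0.04 (-0.29 to 0.38) and *Twist1* at 0.66 (0.28 to 1.05). Neither was called, where 5.78% of 6971 genes were called higher and 4.91% lower. The *Twist1* share in thinned mural-like cells was 61.4% (LIP) and 48.2% (control).

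In epithelial-like cells 5 of the 9 genes could be counted. *Runx2* was called higher in the LIP library and *Msx2* lower, against 3.64% of 10991 genes called higher and 2.82% lower. *Runx2* was at 25.6 CPM (19.8 to 32.6) in 13 of 112 LIP cells and 4.86 CPM (3.28 to 6.94) in 14 of 224 control cells, a log2 ratio of 2.40 (1.75 to 3.07). *Msx2* was at -1.73 (-2.52 to -1.02), or 3.32-fold lower, and in thinned cells its share was 3.85% against 10.1%. Its log2 ratio after thinning to 5000 UMIs was -0.87 (-2.63 to 0.56), which is not past 2-fold. *Dlx5* at -0.47 (-0.89 to -0.06), *Dlx3* at -0.76 (-1.36 to -0.20) and *Scx* at 0.68 (-0.02 to 1.35) were within 2-fold. Each of the 3 epithelial-like sub-clusters had a lower *Msx2* value in the LIP library, with 5.21 against 16.7 CPM, 8.90 against 28.9 CPM and 7.65 against 31.3 CPM.

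The epithelial *Runx2* UMIs of the LIP library lay with *Odam*, which encodes a protein of the junctional epithelium that seals the gum to the tooth. *Amtn*, another gene of that epithelium, had 0 UMIs in the epithelial-like cells of both libraries, with *Odam* or without it. This division of cells was chosen after the data were seen. The 26 LIP cells with an *Odam* UMI held 57 of the 66 *Runx2* UMIs, at 99.5 CPM (75.3 to 129) in 8 cells, and the 86 cells without one had 4.50 CPM (2.06 to 8.54). In the control library only 4 cells had an *Odam* UMI, with 70.1 CPM of *Runx2* (22.8 to 164), and the other 220 cells had 4.10 CPM (2.65 to 6.05). Among cells without *Odam*, LIP and control *Runx2* levels therefore overlapped. *Msx2* differed there as in the whole class, at 7.0 CPM (3.83 to 11.7) in LIP and 23.3 CPM (19.6 to 27.5) in control cells. All 13 LIP cells with *Runx2* held *Krt14*, and none held *Twist1* or *Sp7*. Whether the *Runx2* UMIs came from these cells themselves was not tested. Osteoblast markers summed to 21.4 CPM in epithelial-like LIP cells and 4.54 CPM in control cells, with 8 of 10 markers detected in LIP cells (*Bglap2* and *Phex* at 0) and 5 of 10 in control cells. Neutrophil markers summed to 1923 and 152 CPM, and their part in the *Runx2* value was not tested.

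**Figure D4:**
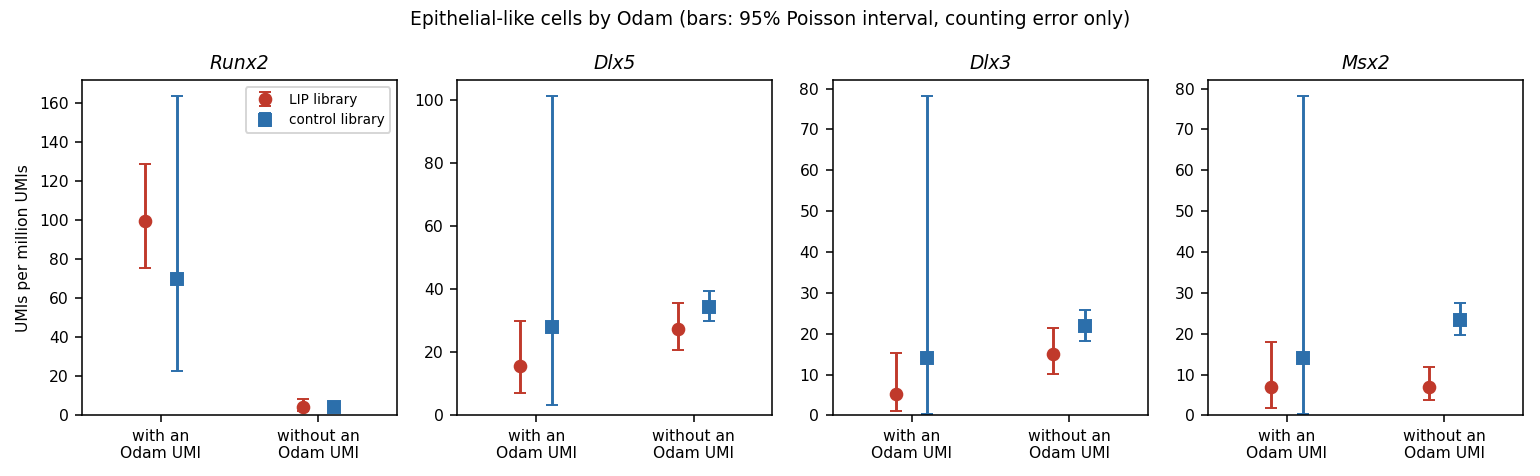
Levels of *Runx2*, *Dlx5*, *Dlx3* and *Msx2* (y axes, CPM) in epithelial-like cells with and without an *Odam* UMI (x axes), for the LIP library (red circles) and the control library (blue squares). Bars are exact 95% Poisson intervals. *Runx2* was at 99.5 CPM in the 26 LIP cells with *Odam* and at 4.50 and 4.10 CPM in LIP and control cells without it, whereas *Msx2* was lower in LIP than in control cells without *Odam*.

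The epithelial *Runx2* value depended on how the cells were clustered. With the 9 genes kept among the clustering features, at a resolution of 0.3 or without integration, between 19 and 21 of the 26 *Odam* cells of the LIP library fell into an unnamed cluster. The log2 ratio was then 0.71 (-0.46 to 1.83), 0.38 (-0.75 to 1.42) and 0.42 (-1.11 to 1.80), and no call was made.

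Among the immune classes only *Runx2* could be compared, and it was called in none of them. In macrophage-like cells its log2 ratio was -0.95 (-1.65 to -0.23), where 10% of 7705 genes were called higher and 6.14% lower. Without the richest cell of each library it was -0.42 (-1.26 to 0.46). Its direction depended on the setting, as it was 1.08 (-0.03 to 2.38) with at most 5% mitochondrial UMIs and 1.87 with each cell named by its marker lists. In neutrophil-like cells it was 0.81 (-0.23 to 2.02), where 11.8% of 5278 genes were called higher and 9.28% lower. In T-like cells it was 0.29 (-0.77 to 1.35), where 10.4% of 4113 genes were called higher and 8.19% lower. In that class a sub-cluster led by *Il17a*, *Trdc* and *Cxcr6* had 67.1 CPM (34.7 to 117) of *Runx2* in LIP and 95.2 CPM (50.7 to 163) in control cells, and the one led by *Xcl1* and *Nkg7* 41.8 CPM (11.4 to 107) and 20.7 CPM (6.71 to 48.3). Most T-like cells belonged to the first among LIP and to the second among control cells. *Msx1* in vascular endothelial-like cells had a log2 ratio of 0.36 (-0.76 to 1.62) and was not called, where 8.04% of 7213 genes were called higher and 5.42% lower.

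Set against the other cells of its library, the osteoblast-like class had 8 of the 9 genes at least 2-fold higher in the LIP library, where 11.6% of 13161 genes were, and 6 of 8 counted in the control library, where 17.1% were. *Msx2* was the gene that was not higher in either, *Dlx5* was higher in the LIP library only, and *Sp7* had too few UMIs in the control library. Epithelial-like cells had *Dlx5*, *Dlx3* and *Msx2* higher in the LIP library (13.3% of all genes), with *Scx* in addition in the control library (9.68%). Mural-like cells had *Msx1*, *Msx2* and *Twist1* higher in the LIP library (14.3%) and *Msx1* and *Twist1* in the control library (15.1%). Fibroblast-like cells had *Msx1*, *Scx* and *Twist1* higher in the LIP library (15.2%) and *Msx1*, *Twist1* and, on 5 UMIs with an interval that spans 0, *Mkx* in the control library (16.4%). These are descriptions of clusters against the rest of the same cells.

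The genes whose pattern was most like each member were sought over 20 points, the classes of at least 15 cells in each library, among 13123 genes, by Pearson's r of log2(CPM + 10). Points of a library share its depth and its stray transcripts, and no p was computed. *Sp7* had an r of 0.95 with *Bglap*, a marker used to name the class. *Twist1* was most like *Sobp* (0.99) and *Aspn* (0.99), *Mkx* like *Spon1* (0.96) and *Cybrd1* (0.96), and *Scx* like *Col22a1* (0.90) and *Ripor3* (0.90). *Dlx3* was most like *Cpa6* (0.96) and *Dlx4os* (0.95), the latter named for its place beside the neighbouring *Dlx4*, and *Dlx5* like *Duox1* (0.94) and *Tmem30b* (0.93). *Msx1* was most like *Enpep* (0.97) and *Fhl1* (0.96), and *Msx2* like *Ybx2* (0.96) and *Cck* (0.92). By this measure *Runx2* had no gene that close, with *Ifitm5* and *Podnl1* at 0.77. *Ifitm5*, like *Bglap*, is on the osteoblast marker list used for naming. The genes named depended on the measure. By Spearman's rank correlation of CPM, *Runx2* was most like *Ptger2* (0.84) and *Smim3* (0.83), and *Twist1* like *Sec16b* (0.92) and *Fam109b* (0.87). *Dlx5* kept *Duox1* and *Tmem30b*, *Dlx3* kept *Cpa6*, and no other member kept a gene. Between members Pearson's r was highest for *Msx1* and *Twist1* (0.90), *Dlx5* and *Dlx3* (0.90) and *Sp7* and *Mkx* (0.89), and lowest for *Runx2* and *Msx2* (-0.10). Each class is 1 point per library, so a high r does not place genes in the same cells. In osteoblast-like LIP cells with osteoblast markers at or above 1000 CPM, *Sp7* was at 163 CPM and *Mkx* at 14.8 CPM. In those below it, *Sp7* was at 0 and *Mkx* at 48.4 CPM.

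Partner genes of the 9 factors were followed as 8 lists, whose counts in osteoblast-like cells stand beside the 8.01% of all genes called higher and 11.6% called lower there. Of the RUNX and SP family members and osteogenic cofactors, 8 of 8 could be counted between LIP and control osteoblast-like cells and none was called in either direction, with *Runx1* at 0.28 (-0.31 to 0.91). Of the jaw mesenchyme factors 8 of 18 could be counted, 0 were called higher and 2 lower, *Osr2* at -2.44 (-3.51 to -1.42) and *Foxf2* at -1.43 (-2.29 to -0.54), with a list median of -0.79 against -0.14 for all genes. *Prrx1*, a factor of limb and jaw mesenchyme, was at -0.80 (-1.11 to -0.49). Of the DLX and MSX relatives only *Dlx1* could be counted, and it was called lower at -1.60 (-2.90 to -0.27). Of 5 ligament and tendon regulators counted, *Egr1* was called higher at 2.53 (1.81 to 3.36) and none lower. *Egr1* is also an immediate-early gene. Of 10 BMP signalling genes *Smad1* was called higher and *Bmp2*, a ligand that induces bone, lower at -2.20 (-2.89 to -1.52). Of 7 TWIST partners *Tcf3* was called higher with an interval that spans 0 (-0.49 to 3.01), and of 2 cartilage factors *Trps1* was called lower.

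Of the 8 targets outside the cell type markers, *Col1a1* at 1.12 (1.09 to 1.16) and *Cthrc1* at 1.79 (1.23 to 2.40) were called higher in osteoblast-like LIP cells and *Spp1*, which encodes osteopontin, lower at -1.58 (-1.63 to -1.52). *Spp1* came from 3 of 20 control cells. In cells at or above the limit of 1000 CPM of osteoblast markers, *Col1a1* was at 65906 CPM in LIP and 47415 CPM in control. That difference was within 2-fold, and the control value rests on 4 cells. Below the limit *Col1a1* was at 45483 CPM in LIP and 20710 CPM in control, which is past 2-fold. The part of the makeup of the class in the *Col1a1* call was not tested. The same list had 4 of 7 counted genes called higher in fibroblast-like cells (median 1.03, all genes -0.03) and 6 of 7 in epithelial-like cells (median 1.47, all genes -0.02), with none lower. Of all genes counted, 4.26% in fibroblast-like and 3.64% in epithelial-like cells were called higher. In epithelial-like cells, which do not make bone matrix, *Col1a1* was at 28.4 CPM in LIP and 10.2 CPM in control cells, and it was also higher in LIP than in control B-like cells, at 70.7 against 14.8 CPM on 7 and 13 UMIs, and in neutrophil-like cells, at 61.2 against 7.67 CPM. The part of stray transcripts in these list counts was not tested.

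Other lists in epithelial-like cells had *Pax9* at -1.38 (-2.00 to -0.81), *Id4* at -1.17 (-1.64 to -0.72) and *Foxc1* at -1.14 (-2.22 to -0.19) called lower, where 2.82% of all genes were. *Bmp2* at 1.08 (0.53 to 1.64) and *Egr1* at 1.02 (0.74 to 1.30) were called higher, where 3.64% were. *Pitx1*, a homeodomain factor of oral epithelium, was within 2-fold at 0.09 (-0.05 to 0.22). Among DLX relatives, *Dlx4* was at 9.71 CPM in LIP and 6.65 CPM in control epithelial-like cells and *Dlx6* at 3.11 and 4.86 CPM. In mural-like cells *Sox9* was at 0 in the LIP library, a limit of 4.69 CPM, against 60.9 CPM in the control library, where its 36 UMIs came from 4 of 46 cells. *Egr1* at -1.40 (-1.54 to -1.27) and *Egr2* at -2.04 (-2.97 to -1.20) were called lower there, as were *Sox9*, *Sox6* at -2.27 (-3.36 to -1.31) and *Osr2* at -1.57 (-2.95 to -0.35), against 4.91% of all genes. Called higher, against 5.78% of all genes, were *Tbx18* at 1.97 (0.36 to 4.0), *Acvr1* at 1.18 (0.12 to 2.34) and *Cbfb* at 1.47 (-0.06 to 3.28), and among the targets *Spp1* at 3.53 (1.53 to 6.65), *Col5a1* at 1.48 (1.02 to 1.96) and *Col1a1* at 1.01 (0.82 to 1.20). *Twist2*, the closest relative of *Twist1*, was at 0.97 (0.35 to 1.59) in fibroblast-like and -0.27 (-1.31 to 0.87) in osteoblast-like cells, both within 2-fold.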

How the data were processed

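The raw UMI count matrices were used as deposited by the authors, who made them with Cell Ranger on mm10, per the submitters' processing notes and the file headers (software version 3.1.0). The gingiva and alveolar bone cells had been captured with 3′ chemistry. Barcodes with 200 to 7500 genes, at most 60000 UMIs and at most 10% mitochondrial UMIs were kept: 936 of 1212 LIP barcodes (10560109 UMIs) and 883 of 1169 control barcodes (13407122 UMIs). The libraries shared 2 barcodes. Scrublet (scanpy 1.11.5) marked 1 LIP and 4 control cells. This is under 0.5%, the share set here for a caller taken to work, and doublets were left in. Whether it missed doublets was not tested. The median depth of 5595 UMIs per LIP cell means that most single cells cannot show the absence of a factor.

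Cells were integrated and clustered in Seurat 5.3.0 (R 4.3.3) on 2000 variable features without the 9 genes, with 30 dimensions, a resolution of 0.1 and sub-clusters at 0.2. A cluster took the name of whichever of 23 marker lists had most genes among its 10 leading ones, where at least 3 markers of that list were in at least 25% of its cells and over 2-fold higher than elsewhere with 10 CPM added. Ties, also at 0 leading genes, went to the list with most such markers, which named the epithelial-like sub-clusters led by *Pappa* (4 markers) and *Cenpf* (6) and the vascular endothelial-like one led by *Sema3g* (8). Intervals were computed with scipy 1.17.1. Ratios were called at 2-fold with 20 UMIs over both sides, a level at 0 being set to 3 counts, in classes of at least 15 cells per library. With 1 library per condition, no p-value was computed. All 9 genes, the 2 genes most like each by pattern, list genes past 2-fold and up to 4 others per list are named. The values of 1 gene under this rule are not reported here. The genes and the 8 partner lists were chosen with earlier results of these data known. Alternatives covered clustering, cell filters, naming, thinning and count limits. Promoters were RefSeq's, of which 4 of the 9 genes had one in the table used.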

Additional observations from a re-analysis of the deposited data

Results flagged for a closer look

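*Runx2* had a log2 ratio of LIP to control of 2.40 in epithelial-like cells and of -0.95 in macrophage-like cells, with intervals on opposite sides of 0. The macrophage-like value was 1.08 with at most 5% mitochondrial UMIs and 1.87 with each cell named by its marker lists, so its direction depended on the setting. *Twist1* had a log2 ratio of 0.42 in fibroblast-like and 0.66 in mural-like cells and of -1.03 in osteoblast-like cells. After thinning to 5000 UMIs the fibroblast-like ratio was -0.05 and the mural-like ratio 0.58. These differences between classes were not tested, since each condition had 1 library. *Sp7* was at 6.52 CPM in the 286 control barcodes that the cell filters left out, above the limit of 0.979 CPM that 0 counts allow, and at 1.04 CPM in the kept control cells. Its 20 UMIs there came from 3 barcodes, 18 of them from 1. In the LIP library *Sp7* was at 7.34 CPM over the 276 barcodes left out, of which 8 held it, and at 10.8 CPM in kept cells. Barcodes over the mitochondrial limit held 3 of the 27 *Sp7* UMIs left out in LIP and 2 of the 20 in control.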

How the results depend on the processing

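Of 1476 values recomputed under other settings, 1227 stayed within their interval or call, 245 moved and in 4 a called value changed sign. *Scx* in fibroblast-like LIP cells over other cells changed sign, to -1.25 with 15 dimensions, -1.01 without integration and -2.71 with each cell named by its marker lists. *Runx2* in macrophage-like control cells over other cells was -0.80 with each cell named so. Of the LIP over control calls, the 1 higher gene of epithelial-like cells became 0 with the 9 genes kept among the features, at a resolution of 0.3, without integration and after thinning to 5000 UMIs. The 1 higher gene of fibroblast-like cells became 0 with 15 dimensions, without integration, after thinning and without the cell richest in the gene. The 1 higher gene of osteoblast-like cells became 2 with 15 dimensions, without integration, as a mean over cells and without the richest cell, and 0 with at most 5% mitochondrial UMIs, with each cell named by its marker lists and after thinning. The 2 lower genes became 0 with 15 dimensions, at most 5% mitochondrial UMIs, each cell named, thinning and in cells with osteoblast markers under 1000 CPM, and 1 without integration, with at least 50 UMIs and in cells above that limit. Over other cells, LIP counts became 1 (epithelial-like, at most 5% mitochondrial UMIs), 5 (osteoblast-like, each cell named), and 6 and 6 (fibroblast-like and mural-like, mean over cells). Removing the richest cell and splitting the osteoblast-like cells were chosen after seeing the data. Values that were not called also changed sign, such as *Runx2* between LIP and control in macrophage-like cells, which ranged from -1.12 to 1.87. The log2 ratio of *Sp7* in osteoblast-like cells ranged from 1.35 to 2.01 under planned settings that gave a value, and that of *Msx2* in epithelial-like cells from -2.38 to -0.87, the latter after thinning, where the 1 lower gene was *Dlx5* at -1.36 in its place. In osteoblast-like cells *Twist1* ranged from -1.03 to -0.67 and *Mkx* from -1.22 to -0.57. A class under 15 cells or a gene under 20 UMIs gave no value, and the causes were not tested. No paired analysis was possible because each condition had 1 library.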

Other observations

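One LIP cell of an unnamed, cycling cluster, with 41511 UMIs, held 6 of the 9 genes. It had 11 UMIs of *Twist1*, 6 of *Runx2*, 4 of *Sp7*, 4 of *Msx1*, 3 of *Mkx* and 1 of *Dlx5*, with 1596 UMIs of *Col1a1* and 2 of *Krt14*. The cell stood outside the osteoblast-like class in all values above.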
